A study of Mus musculus with 18 samples.

Results

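Ginsenoside Rc at 10 µM was compared with its vehicle in C2C12 myotubes that had all received dexamethasone. The 6 libraries were chosen by their labels, 3 with 10 µM ginsenoside Rc and dexamethasone against 3 with dexamethasone alone, out of 18 in the series. C2C12 is a mouse myoblast line that fuses into multinucleated myotubes, here after 5 days in horse serum. The first group was pre-treated for 12 h with 10 µM ginsenoside Rc and then exposed to 200 µM dexamethasone for 24 h. The second was pre-treated for 12 h with 0.1% DMSO before the same 200 µM dexamethasone. Other groups used here, each of 3 libraries collected at 36 h like the rest, were 20 µM ginsenoside Rc with 200 µM dexamethasone, 10 µM and 20 µM ginsenoside Rc without dexamethasone, and a control with 0.1% DMSO only. The labels name 1 batch and do not say whether replicates were separate cultures, so every p-value below reflects the spread among libraries alone, and that spread may be technical. The model is 1 immortalised line in culture, without nerve, vessels or other cell types of muscle.

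Ginsenoside Rc is a triterpenoid saponin of ginseng. Dexamethasone is a synthetic glucocorticoid: bound to it, the glucocorticoid receptor enters the nucleus and raises target genes such as Fkbp5, Tsc22d3 and Klf15. In muscle, glucocorticoids also raise the ubiquitin ligases Fbxo32 (atrogin-1) and Trim63 (MuRF1), which mark sarcomeric proteins for degradation, and C2C12 myotubes under dexamethasone are widely used as a culture model of steroid-induced atrophy. The comparison asks how a pre-treatment with the saponin alters the transcripts of such myotubes.

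The 6 libraries held 40126448 to 45035415 expected counts, and 3 counts, taken as the detection floor, corresponded to 0.0685 to 0.0763 CPM (counts scaled to a common library size). Such floors cover counting error only. Mitochondrially encoded genes took 1.68% to 1.89% of counts. Myotube markers summed to 24184 to 26053 CPM with ginsenoside Rc and dexamethasone and to 24525 to 26239 CPM with dexamethasone alone. Undifferentiated myoblast markers summed to 465 to 488 CPM against 485 to 506 CPM, and fibroblast markers, which C2C12 cells also express (Col1a1, Col3a1), to 2284 to 2427 CPM against 2102 to 2561 CPM, with Tcf21 at 0. Of the defining genes of other cell types, Ptprc and Adgre1 (macrophages), Tie1 (endothelium) and Lep (adipocytes) were at 0 in all 6 libraries. Other members of these lists were detected. Pparg (5.50 to 7.02 CPM) and Fabp4 (3.15 to 4.11 CPM) made up nearly all of the adipocyte sum, and Cd68 most of the macrophage sum. The sums were 1.44 to 1.70 CPM against 1.24 to 1.39 CPM for macrophage markers, 0.137 to 0.160 CPM against 0.0496 to 0.253 CPM for endothelial markers, and 10.3 to 10.8 CPM against 8.68 to 10.8 CPM for adipocyte markers. Osteoblast markers summed to 19.7 to 21.8 CPM against 21.8 to 22.3 CPM, nearly all of it Runx2, and Schwann or neuron markers to 0.708 to 0.865 CPM against 0.783 to 0.892 CPM. In 11674 genes, a first principal component (82.8% of variance) separated libraries with and without dexamethasone. Replicate 2 of dexamethasone alone lay farthest out on the third component (1.90% of variance), and replicate 2 of 20 µM ginsenoside Rc without dexamethasone stood apart on the second (6.49%). That library is in none of the comparisons of 10 µM but shares in the estimate of spread and in the choice of dexamethasone-responsive genes.

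With dexamethasone, 10 µM ginsenoside Rc changed 4 of 15436 genes tested (0.0259%) at an adjusted p below 0.05. Of these, 3 fell (0.0194%): Fgfbp1, Lgr6 and Col23a1. The 1 that rose (0.00648%) was Tm6sf1. The 3 that fell encode proteins of the cell surface and the space around it. Dexamethasone alone over control, a comparison that shares the 3 dexamethasone libraries, had log2 fold changes of -1.70 for Fgfbp1, -1.13 for Lgr6, -1.54 for Col23a1 and 2.69 for Tm6sf1. In bulk RNA, fewer cells of a type and less RNA per cell cannot be told apart.

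Fgfbp1 (ENSMUSG00000048373, GRCm38 chromosome 5, 43978858 to 43981779, minus strand) encodes a secreted carrier that binds fibroblast growth factors held in the matrix and releases them. Fgfbp1 measured 3.24, 3.51 and 4.11 CPM in replicates 1 to 3 with ginsenoside Rc and dexamethasone, against 5.76, 6.01 and 5.97 CPM with dexamethasone alone. The groups did not overlap, and the counts behind them were 138 to 180 against 238 to 261 per library. Its log2 fold change was -0.71 ± 0.11 (SE, n = 3 against 3; edgeR quasi-likelihood, adjusted p = 0.0347). Without dexamethasone, Fgfbp1 measured 15.4, 14.8 and 17.7 CPM with 10 µM ginsenoside Rc and 20.0, 18.2 and 19.7 CPM in controls, so every dexamethasone-treated library lay far below every untreated one.

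Lgr6 (ENSMUSG00000042793, GRCm38 chromosome 1, 134983301 to 135105276, minus strand) encodes a receptor for R-spondins, the secreted proteins that strengthen Wnt signalling. Lgr6 measured 5.23, 5.72 and 5.87 CPM with ginsenoside Rc and dexamethasone, against 10.1, 7.92 and 8.16 CPM with dexamethasone alone. The lowest dexamethasone library was still above the highest with ginsenoside Rc, and the spread was wider with dexamethasone alone (SD 1.21 CPM) than with ginsenoside Rc (SD 0.338 CPM). Its log2 fold change was -0.64 ± 0.10 (SE, edgeR, adjusted p = 0.0347). Without dexamethasone, Lgr6 measured 17.6, 16.2 and 17.4 CPM with 10 µM ginsenoside Rc and 20.5, 16.9 and 19.9 CPM in controls, which overlap.

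Col23a1 (ENSMUSG00000063564, GRCm38 chromosome 11, 51289920 to 51583918, plus strand) encodes the alpha chain of type XXIII collagen, a collagen anchored in the plasma membrane. Col23a1 measured 4.31, 4.10 and 4.64 CPM with ginsenoside Rc and dexamethasone, against 6.02, 7.02 and 5.97 CPM with dexamethasone alone, again without overlap. Its log2 fold change was -0.54 ± 0.09 (SE, edgeR, adjusted p = 0.0427). Without dexamethasone, Col23a1 measured 13.4, 13.4 and 13.5 CPM with 10 µM ginsenoside Rc and 18.6, 18.3 and 18.4 CPM in controls, a log2 fold change of -0.46 that did not pass (adjusted p = 0.106). Of the 4 genes, Col23a1 thus had the most similar differences with and without dexamethasone.

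Tm6sf1 (ENSMUSG00000038623, GRCm38 chromosome 7, 81859001 to 81884434, plus strand) encodes a membrane protein of the lysosome, a relative of the lipid-handling protein TM6SF2. Tm6sf1 measured 113.9, 114.4 and 105.0 CPM with ginsenoside Rc and dexamethasone, against 88.4, 87.1 and 92.2 CPM with dexamethasone alone. Its log2 fold change was 0.32 ± 0.05 (SE, edgeR, adjusted p = 0.0427), the smallest of the 4 and the best covered, with 3655 to 4990 counts per library. Without dexamethasone, Tm6sf1 measured 15.2, 15.4 and 14.7 CPM with 10 µM ginsenoside Rc and 13.2, 14.5 and 13.7 CPM in controls.

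**Figure D1:**
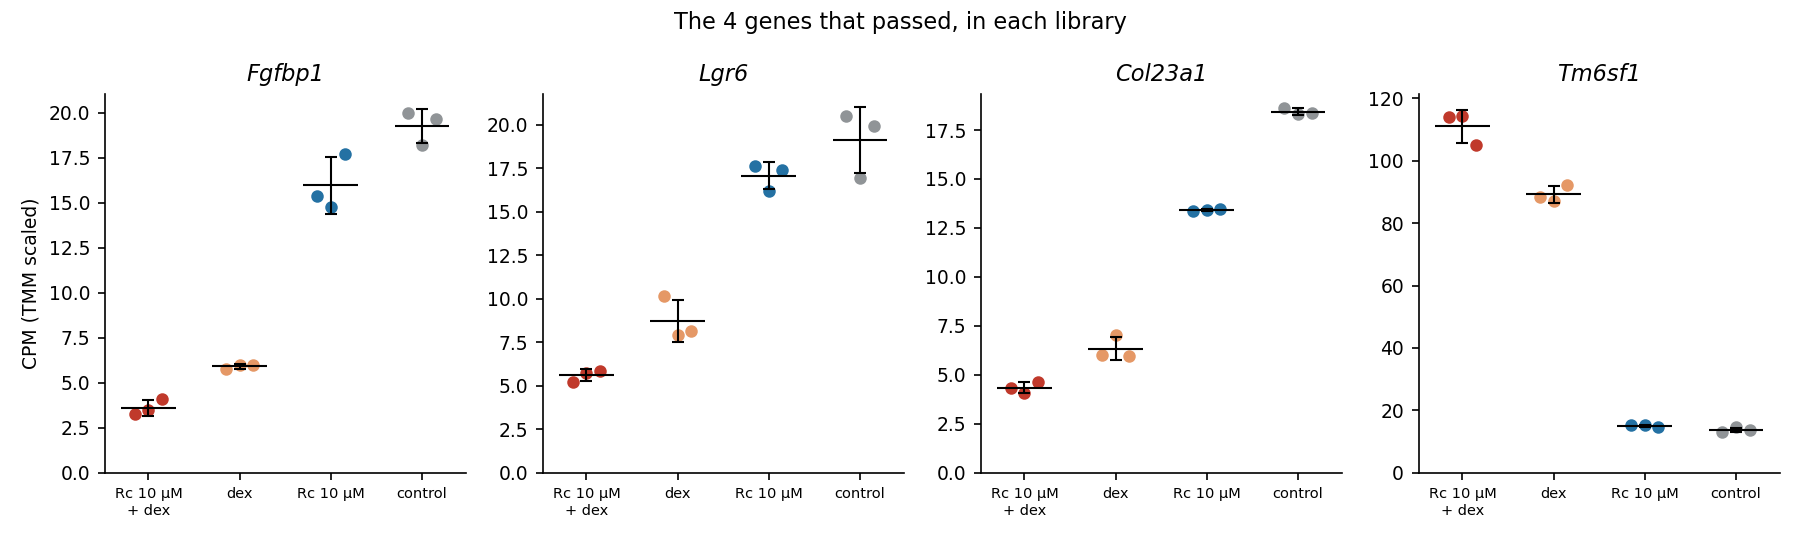
CPM (TMM scaled, axis from 0) of the 4 genes that passed, 1 point per library, with the mean and SD of 3 libraries per group. Of the 4 groups drawn, ginsenoside Rc with dexamethasone has the lowest Fgfbp1, Lgr6 and Col23a1 means and controls the highest, and Tm6sf1 runs the other way, with all 3 libraries of ginsenoside Rc and dexamethasone between 105.0 and 114.4 CPM.

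The sequences around the starts of the 3 genes that fell are shown because these genes moved together, and because both dexamethasone, through its receptor, and Wnt signals, through TCF/LEF factors, act on transcription. RefSeq promoters (GRCm38.p6) of 300 bases, 250 before and 50 after each listed start, were at hand for 3 of the 4 genes, all but Tm6sf1. They are printed 5′ to 3′ on the gene's strand, at chr5:43981750-43982049 (minus strand), chr1:135105227-135105526 (minus strand) and chr11:51289670-51289969 (plus strand), with motif matches in capitals.
Fgfbp1: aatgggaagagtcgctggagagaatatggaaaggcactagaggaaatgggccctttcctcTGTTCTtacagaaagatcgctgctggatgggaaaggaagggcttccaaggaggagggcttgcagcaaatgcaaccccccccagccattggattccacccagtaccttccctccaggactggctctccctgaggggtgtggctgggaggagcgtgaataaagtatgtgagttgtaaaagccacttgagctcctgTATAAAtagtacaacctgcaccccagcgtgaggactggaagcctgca
Lgr6: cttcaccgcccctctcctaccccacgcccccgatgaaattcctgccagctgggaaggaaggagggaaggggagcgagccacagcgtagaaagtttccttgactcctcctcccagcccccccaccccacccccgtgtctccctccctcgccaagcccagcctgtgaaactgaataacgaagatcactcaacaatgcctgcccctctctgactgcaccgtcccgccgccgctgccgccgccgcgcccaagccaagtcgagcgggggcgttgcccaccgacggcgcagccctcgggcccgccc
Col23a1: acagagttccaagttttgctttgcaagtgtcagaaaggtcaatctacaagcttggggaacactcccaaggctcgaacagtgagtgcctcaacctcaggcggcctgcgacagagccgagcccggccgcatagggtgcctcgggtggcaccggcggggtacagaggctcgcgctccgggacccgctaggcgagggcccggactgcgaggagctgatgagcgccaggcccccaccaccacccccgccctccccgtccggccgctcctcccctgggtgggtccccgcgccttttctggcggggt
Both strands were searched for the palindromic glucocorticoid response element (AGAACA, 3 bases of any kind, then TGTTCT), its half-site AGAACA alone, the TCF/LEF motif CTTTGA, the TEAD motif GGAATG and the TATA box TATAAA; the half-site is part of the full element. Only the Fgfbp1 window held any: TGTTCT, the half-site read on the other strand, at bases -190 to -185 from the listed start, and TATAAA at bases 4 to 9 after it. That start is the RefSeq one. The Fgfbp1 coordinates given above, from GENCODE, begin further downstream, at 43981779 on the minus strand, which puts TATAAA before that start. Of 32851 such promoters, 19% held a half-site, 16% the TCF/LEF motif, 14.7% the TEAD motif, 13.6% the TATA box and 0.00913% the full element. A match is a description of the letters, not a bound site, and the lack of one covers these windows only. The Lgr6 and Col23a1 windows were richer in G and C (67.7% each) than that of Fgfbp1 (53.3%).

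How many genes pass depended on the fit. Libraries with the same replicate number deviated together in the 2 groups to an unequal degree, with correlations of 0.45, 0.14 and 0.11 for replicates 1 to 3. Replicate 3 with ginsenoside Rc and dexamethasone correlated more with replicate 2 of dexamethasone alone (0.18). With the replicate number as a block in the model of 18 libraries only Fgfbp1 passed (adjusted p = 0.0173). The adjusted p was 0.0573 for Lgr6, 0.112 for Col23a1 and 0.113 for Tm6sf1. The block in a model of these 6 libraries alone, a fit chosen after seeing the data, called 324 of 14675 genes (2.21%), 144 higher (0.981%) and 180 lower (1.23%), with all 4 among them. That fit has 2 residual degrees of freedom and draws its error mainly from the prior shared by all genes (22.2 degrees of freedom). Without replicate 2 of 20 µM ginsenoside Rc alone, 15 genes passed, these 4 included. Leaving out any 1 of the 6 libraries left no gene, except that Fgfbp1 passed without replicate 3 of ginsenoside Rc and dexamethasone. The fold changes themselves moved little: over these 6 omissions Fgfbp1 lay between -0.81 and -0.63, Lgr6 between -0.71 and -0.52, Col23a1 between -0.59 and -0.46, and Tm6sf1 between 0.30 and 0.36 on the log2 scale.

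Differences across the transcriptome were small. Among the 11786 genes whose average log2 CPM was 1 or more, the median absolute log2 fold change was 0.040, below the median SE of 0.076, and the 95th percentile was 0.19. An absolute log2 fold change above 0.5 was reached by 33 of them, 7 higher and 26 lower, and above 1 by 4. Over all genes tested, the median log2 fold change was 0.00028, and 594 genes (3.85%) had an unadjusted p below 0.05, 256 higher (1.66%) and 338 lower (2.19%). A share of 5% falls below that level when nothing differs. In 1669 genes (10.8%) the 2 groups did not overlap.

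**Figure D2:**
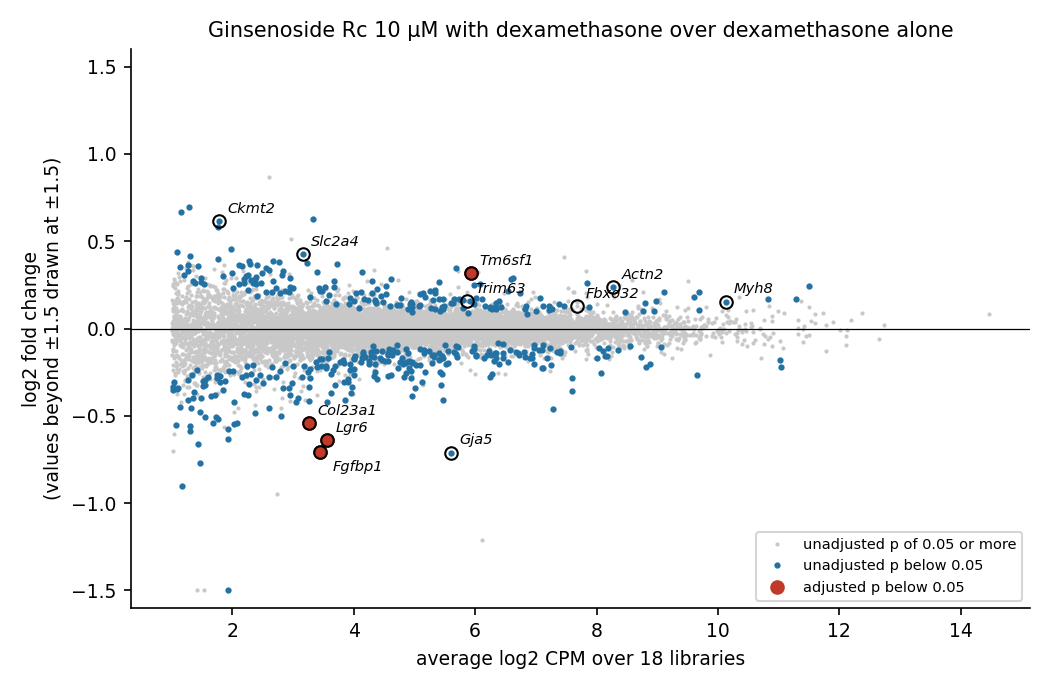
Log2 fold change of ginsenoside Rc 10 µM with dexamethasone over dexamethasone alone against average log2 CPM over 18 libraries, 1 point per gene whose average is 1 or more, with values beyond the axis drawn at its edge. Nearly all genes lie within 0.5 of 0, and the 4 genes that passed (red) include 3 of moderate level below the line and Tm6sf1 above it.

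Genes next in order of p did not pass in the edgeR fit of 18 libraries, and are given as values. Among the higher ones, Actn2, the Z-disc protein alpha-actinin 2, measured 351, 355 and 366 CPM with ginsenoside Rc and dexamethasone, against 293, 309 and 306 CPM with dexamethasone alone (log2 fold change 0.24 ± 0.05, adjusted p = 0.248). Mybpc1, slow myosin-binding protein C, measured 370, 390 and 352 CPM against 280, 331 and 318 CPM with dexamethasone alone (0.26 ± 0.06, adjusted p = 0.335). Ckmt2, the sarcomeric mitochondrial creatine kinase, measured 6.80, 5.27 and 6.40 CPM against 4.11, 3.55 and 4.44 CPM with dexamethasone alone (0.61 ± 0.13, adjusted p = 0.255). None of these 3 overlapped between groups, but neither did 10.8% of all genes, and these were picked for a small p. Slc2a4, the insulin-responsive glucose transporter GLUT4, measured 17.3, 14.7 and 13.3 CPM with ginsenoside Rc and dexamethasone, against 11.6, 11.2 and 10.9 CPM with dexamethasone alone (0.43 ± 0.11, adjusted p = 0.572). The other 4 of the 8, also without overlap, were Nabp1, a subunit of a single-stranded DNA binding complex (0.25), Plekhh1 (0.29), the lipid droplet protein Plin4 (0.28) and Asb2, a ubiquitin ligase subunit of muscle (0.20). Of these higher genes, DESeq2 called Actn2, Mybpc1, Ckmt2 and Nabp1. The edgeR fit without replicate 2 of 20 µM ginsenoside Rc alone called Actn2, Mybpc1, Ckmt2 and Plin4. Slc2a4, Plekhh1 and Asb2 passed in neither.

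Among the lower ones, Gja5, the gap junction protein connexin 40, had the largest difference. Gja5 measured 12.8, 13.8 and 13.6 CPM with ginsenoside Rc and dexamethasone, against 24.3, 22.4 and 19.1 CPM with dexamethasone alone (log2 fold change -0.71 ± 0.13, adjusted p = 0.0904). Fitted to the 6 libraries alone without a block, Gja5 was the only gene that passed (adjusted p = 0.0196). Padi2, a peptidylarginine deiminase, measured 80.4, 99.0 and 94.9 CPM against 104.2, 129.6 and 117.3 CPM with dexamethasone alone (-0.36 ± 0.08, adjusted p = 0.384). Also lower were the choline transporter-like protein Slc44a4 (-0.29), the sulfotransferase Sult2b1 (-0.54), the receptor phosphatase Ptprf (-0.20), the microtubule regulator Stmn2 (-0.31) and the ubiquitin ligase Hecw2 (-0.28). All 7 genes named here were without overlap between groups, and so stood in the same class as 10.8% of all genes. DESeq2 called Gja5, Padi2, Slc44a4, Ptprf and Stmn2 of them. The edgeR fit without replicate 2 of 20 µM ginsenoside Rc alone called Gja5, Slc44a4, Ptprf and Hecw2. Sult2b1 passed in neither.

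**Figure D3:**
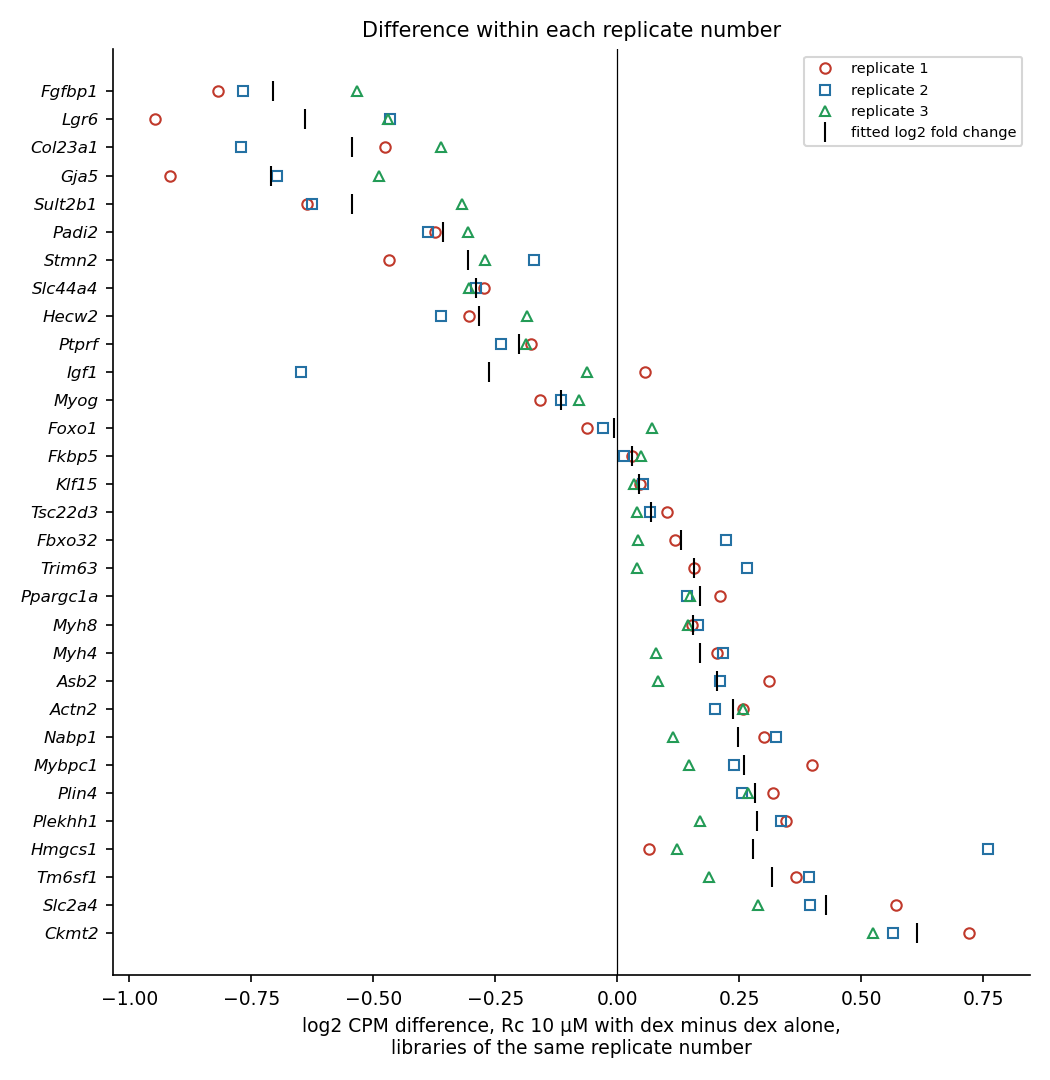
Difference in log2 CPM between libraries of the same replicate number, ginsenoside Rc 10 µM with dexamethasone minus dexamethasone alone, for named genes, with the fitted log2 fold change as a black tick. Fgfbp1, Lgr6, Col23a1 and Gja5 lie left of 0 in all 3 pairs and Tm6sf1 right of it, while Igf1 (-0.65) and Hmgcs1 (0.76) have their largest difference in pair 2.

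Genes of the glucocorticoid response were at similar levels in both groups. Of 28 tested targets of the glucocorticoid receptor, 0 were called higher or lower, where 0.0259% of all genes were called. Of the 28, 18 lay above 0, with a median log2 fold change of 0.03 (0.01 to 0.04 with any 1 of the 6 libraries left out). Fkbp5, a co-chaperone of the receptor, measured 447, 438 and 428 CPM with ginsenoside Rc and dexamethasone, against 438, 434 and 414 CPM with dexamethasone alone (0.03, 95% interval -0.06 to 0.12). Tsc22d3 (GILZ) had a log2 fold change of 0.07 (-0.04 to 0.18) and the transcription factor Klf15 one of 0.05 (-0.13 to 0.22). Dexamethasone alone over control gave log2 fold changes of 4.17 for Fkbp5, 3.26 for Tsc22d3 and 5.26 for Klf15, in a comparison that shares the dexamethasone libraries. Only Cdkn1a, the cell cycle inhibitor p21, had an unadjusted p below 0.05 in the list, with 1758, 1846 and 1955 CPM against 2124, 2200 and 2148 CPM with dexamethasone alone (-0.22 ± 0.08). In the blocked fit of 6 libraries 1 of the list passed as higher (Ddit4, against 0.981% of all genes). Cdkn1a passed there as lower (against 1.23%), and the block over 18 libraries called neither.

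No atrophy gene passed in either direction. Of 26 tested, 0 were called in the fit of all 18 libraries, 0 had an unadjusted p below 0.05, and 20 lay above 0 (median log2 fold change 0.04, or 0.01 without replicate 2 of dexamethasone alone). Fbxo32 measured 355, 329 and 285 CPM with ginsenoside Rc and dexamethasone, against 327, 282 and 276 CPM with dexamethasone alone (0.13 ± 0.11, 95% interval -0.10 to 0.36). Trim63 measured 96.4, 87.5 and 74.0 CPM against 86.4, 72.7 and 72.0 CPM with dexamethasone alone (0.16 ± 0.13, interval -0.13 to 0.44). Both groups overlap in both genes, and the intervals reach down to -0.10 for Fbxo32 and -0.13 for Trim63. In each pair of libraries with the same number both genes were higher with ginsenoside Rc, by 0.12, 0.22 and 0.04 for Fbxo32 and 0.16, 0.27 and 0.04 for Trim63. In the blocked fit of 6 libraries, where 0.981% of all genes passed as higher, 4 of the 26 did so: Fbxo32 (adjusted p = 0.0283), Trim63 (adjusted p = 0.0315), and Ddit4 and Sesn1, both inhibitors of mTORC1 signalling. The block over 18 libraries called none of them. Foxo1, a transcription factor that drives both ligases, measured 50.5, 51.1 and 55.7 CPM against 52.7, 52.2 and 53.1 CPM with dexamethasone alone (-0.0058). The growth factor Igf1 measured 7.10, 8.27 and 9.23 CPM against 6.82, 13.0 and 9.64 CPM, a fitted difference of -0.26 ± 0.21 that rests on replicate 2.

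In the edgeR fit of all 18 libraries no gene of the sarcomere passed. Of 48 sarcomere genes tested, 6 were higher at an unadjusted p below 0.05 and 0 lower, against 1.66% and 2.19% of all genes, while the median log2 fold change was 0.0092 with 25 above 0 (-0.0082 without replicate 3 and 0.04 without replicate 1 of ginsenoside Rc with dexamethasone). The 6 were Actn2, Mybpc1, Ckm (the cytosolic muscle creatine kinase), Myoz1 (a calcineurin-binding Z-disc protein), Myh4 and Myh8. Myh8, the perinatal myosin heavy chain, measured 1471, 1654 and 1595 CPM with ginsenoside Rc and dexamethasone, against 1324, 1475 and 1443 CPM with dexamethasone alone (0.15 ± 0.05, adjusted p = 0.9999). Myh4, the fast IIb myosin heavy chain, measured 2537, 2764 and 2346 CPM against 2201, 2378 and 2220 CPM (0.17 ± 0.07). Both overlap between groups, and reads of myosin heavy chains can be split between near-identical genes. Myh1 was lower in each pair of libraries with the same number, at 4279, 4772 and 4945 CPM against 4545, 5416 and 5009 CPM. Myh3 was lower in pairs 1 and 2 and higher in pair 3, at 2047, 2365 and 2450 CPM against 2341, 2759 and 2392 CPM. The calcium pump Atp2a1 (SERCA1) measured 3343, 3396 and 3350 CPM against 2869, 3108 and 3008 CPM without overlap (0.17 ± 0.05, adjusted p = 0.713). Of 26 myogenic regulators, 1 was higher and 2 lower at that level. The higher one was Myf6 (MRF4), at 13.9, 13.2 and 12.4 CPM against 9.75, 10.4 and 11.2 CPM (0.33 ± 0.10). Myog, the regulator of fusion and terminal differentiation, measured 588, 574 and 677 CPM against 656, 623 and 715 CPM (-0.12 ± 0.09), lower in each pair. In the blocked fit of 6 libraries, where 0.981% of all genes passed as higher and 1.23% as lower, 7 sarcomere genes passed as higher and 1 as lower (Xirp1). The 7 were Actn2 (adjusted p = 3.5e-05), Mybpc1 (adjusted p = 0.00891), Myh8 (adjusted p = 0.00602), Myh4 (adjusted p = 0.00801), Ckm, Lmod2 and Myl2. Atp2a1 (adjusted p = 0.00634) and Myf6 (adjusted p = 0.00839) passed there as higher and Myog (adjusted p = 0.0325) as lower, while the block over 18 libraries called none of these genes. Of the same genes, DESeq2 over 18 libraries called Actn2, Mybpc1 and Atp2a1. The edgeR fit without replicate 2 of 20 µM ginsenoside Rc alone called Actn2 and Mybpc1.

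Wnt genes lay mostly below 0. Of 49 tested, 1 was called (Lgr6) and 9 were lower at an unadjusted p below 0.05 and 1 higher, against 2.19% and 1.66% of all genes tested, with 35 below 0 and a median log2 fold change of -0.06. Among ligands and their maturation, Wnt10a measured 66.7, 64.9 and 69.4 CPM with ginsenoside Rc and dexamethasone, against 83.4, 70.9 and 74.2 CPM with dexamethasone alone (-0.18 ± 0.06). Wnt9a (-0.15) and Porcn (-0.12), the acyltransferase that lipidates Wnt proteins, were the others. Among receptors, Fzd1 (-0.11) and Fzd2 (-0.14) were lower beside Lgr6. Of inhibitors and targets, Axin2, a scaffold that Wnt signalling induces and that in turn restrains it, measured 13.8, 14.1 and 14.1 CPM against 19.7, 16.9 and 17.6 CPM (-0.37 ± 0.09, adjusted p = 0.489). Nkd2 (-0.21), an inhibitor, and Sfrp2 (-0.41), a secreted binder of Wnt proteins, were lower too, so members that promote and that restrain the pathway stood on the same side. The 1 higher was the ligand Rspo3, at 0.708, 0.661 and 0.503 CPM against 0.459, 0.253 and 0.397 CPM (0.75 ± 0.31). The list's median stayed between -0.07 and -0.04 with any 1 of the 6 libraries left out. In the blocked fit of 6 libraries 8 Wnt genes passed as lower (1.23% of all genes) and 0 as higher (0.981%), and the block over 18 libraries called none of them. Among Wnt genes, DESeq2 called Lgr6. The edgeR fit without replicate 2 of 20 µM ginsenoside Rc alone called Lgr6 and Axin2.

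Other growth and matrix lists held at most 1 gene each that passed in the edgeR fit of 18 libraries. In 38 FGF genes, Fgfbp1 passed and Fgfr4, an FGF receptor of myogenic cells, was lower at an unadjusted p below 0.05 (6.83, 7.38 and 7.50 CPM against 8.58, 8.47 and 9.02 CPM, -0.26 ± 0.07). Of 29 YAP and TEAD targets, 5 were lower and 0 higher at that level, against 2.19% and 1.66% of all genes (median -0.05, 8 above 0): Ccn1 (-0.28), Ankrd1 (-0.27), Crim1 (-0.23), Amotl2 (-0.17) and Ajuba (-0.14). Ccn1, a matricellular protein, measured 148, 164 and 184 CPM with ginsenoside Rc and dexamethasone, against 179, 215 and 211 CPM with dexamethasone alone, which overlap. Of 47 genes of TGF-beta, BMP and myostatin signalling, 5 were lower and 1 higher, among them the receptor Tgfbr2 (213, 204 and 211 CPM against 232, 236 and 232 CPM, -0.16 ± 0.05) and the activin antagonist Fst (-0.23). The 1 higher was Tgfbr1 (0.13). These counts of lower and higher genes, and those below, are at an unadjusted p below 0.05. They stand against the same 2.19% and 1.66% of all genes. Of 32 collagens, Col23a1 passed and 13 lay above 0 (median -0.02). Their median was -0.08 without replicate 1 and 0.06 without replicate 2 of dexamethasone alone. Of them 1 was higher, Col11a2 (0.40 ± 0.15), and 2 were lower, Col23a1 among them. Of 40 matrix glycoproteins and proteases, 2 were higher and 4 lower, with Fbln1 (fibulin 1) at 107, 109 and 123 CPM against 87.8, 95.9 and 100.3 CPM (0.26 ± 0.07). In IGF, insulin and mTOR signalling 2 of 35 were higher and 2 lower, with the insulin receptor adaptor Grb10 at 8.77, 9.64 and 9.25 CPM against 6.50, 7.39 and 7.24 CPM (0.39 ± 0.11). Among 32 inflammatory and NF-kB genes 1 was higher and 2 lower, with the NF-kB inhibitor Tnfaip3 at -0.19 ± 0.06. In the blocked fit of 6 libraries 0.981% of all genes passed as higher and 1.23% as lower. There 5 YAP and TEAD targets passed as lower and 0 as higher, and 6 TGF-beta, BMP and myostatin genes as lower and 1 as higher. Collagens had 1 higher (Col11a2) and 1 lower (Col23a1), and FGF genes 0 higher and 1 lower (Fgfbp1). Matrix glycoproteins and proteases had 3 higher and 4 lower, IGF, insulin and mTOR genes 4 higher and 1 lower, and inflammatory genes 0 higher and 2 lower. The block over 18 libraries called only Fgfbp1.

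**Figure D4:**
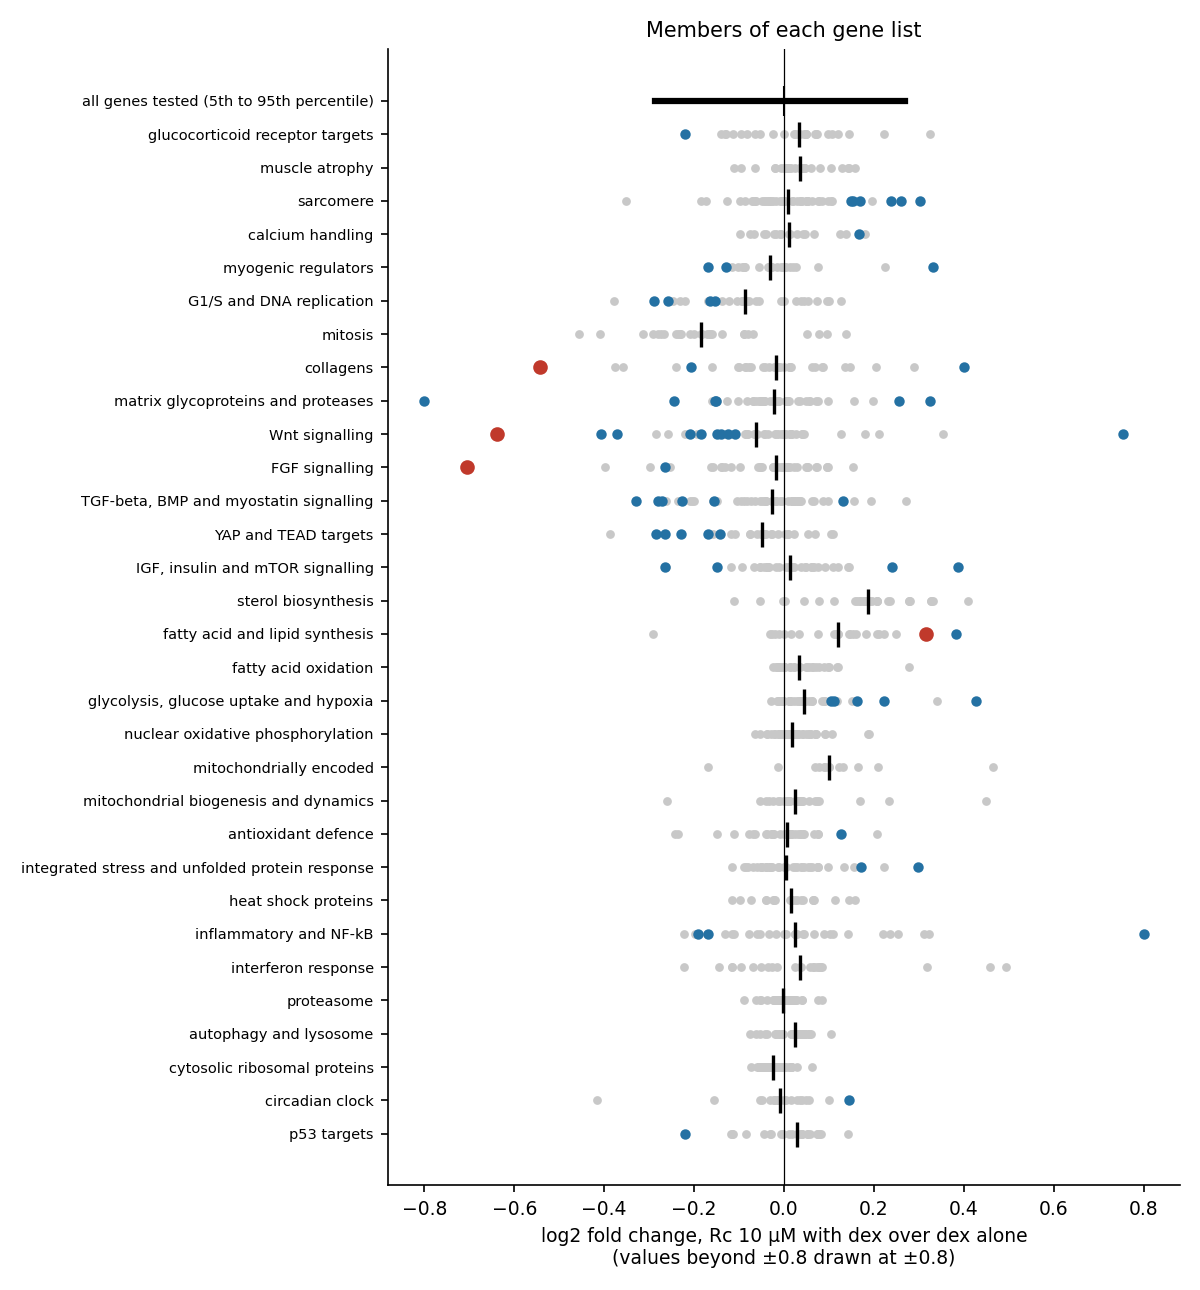
Log2 fold change of each tested gene of 31 lists, ginsenoside Rc 10 µM with dexamethasone over dexamethasone alone, with list medians as black ticks (grey, unadjusted p of 0.05 or more; blue, below 0.05; red, adjusted p below 0.05). The bar at the top spans the 5th to 95th percentile of all genes tested; Wnt, YAP and TEAD genes with blue points lie mostly left of 0, glycolysis genes right of it, and sterol and mitosis genes are shifted with no blue point.

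Genes of glucose and lipid metabolism lay mostly above 0. Of 34 genes of glycolysis, glucose uptake and hypoxia, 5 were higher and 0 lower at an unadjusted p below 0.05, against 1.66% and 2.19% of all genes. Of the 34, 28 lay above 0, with a median log2 fold change of 0.04 (0.04 without replicate 2 and 0.08 without replicate 1 of dexamethasone alone). Beside Slc2a4 these were the phosphofructokinase Pfkp (0.11), the lactate dehydrogenase subunit Ldhb (0.16), the hypoxia-induced carbonic anhydrase Car9 (0.22) and Vegfa (0.10). The list's mean log2 CPM was 6.95, 6.92 and 6.92 with ginsenoside Rc and dexamethasone, against 6.90, 6.81 and 6.86 with dexamethasone alone, without overlap. Of 24 genes of fatty acid and lipid synthesis, 18 lay above 0 (median 0.12, or 0.05 without replicate 2 and 0.19 without replicate 1 of dexamethasone alone), and beside Tm6sf1 the mitochondrial acetyl-CoA carboxylase Acacb was higher at that level, at 9.82, 9.18 and 8.93 CPM against 6.94, 7.02 and 7.46 CPM (0.38 ± 0.10). Nuclear oxidative phosphorylation genes had a median of 0.02 with 0 of 53 at that level. Ppargc1a, the coactivator of mitochondrial biogenesis, measured 5.16, 5.01 and 4.87 CPM against 4.45, 4.54 and 4.39 CPM without overlap (0.17 ± 0.11, adjusted p = 0.9999). In the blocked fit of 6 libraries 0.981% of all genes passed as higher and 1.23% as lower. There 5 members of the lipid synthesis list (Acaca, Acacb, Mid1ip1, Scd1 and Tm6sf1) passed as higher and 0 as lower. Tm6sf1, a membrane protein of the lysosome, is counted in that list only as a relative of a lipid-handling protein. Of the glycolysis list 3 (Car9, Hk2 and Slc2a4) passed as higher and 0 as lower. The block over 18 libraries called none of them.

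Sterol and mitosis genes had larger medians, which rested on single libraries. Of 28 sterol biosynthesis genes, 25 lay above 0 with a median log2 fold change of 0.19, but 0 had an unadjusted p below 0.05. Their mean log2 CPM was 6.82, 6.60 and 6.46 with ginsenoside Rc and dexamethasone, against 6.76, 6.09 and 6.43 with dexamethasone alone, so replicate 2 of dexamethasone alone was low and the others overlap. Hmgcs1, which makes the precursor of mevalonate, measured 610, 535 and 483 CPM against 584, 316 and 443 CPM with dexamethasone alone (0.28 ± 0.15). The median was 0.02 without that replicate 2 and 0.42 without replicate 1 of dexamethasone alone. Of 28 mitosis genes, 24 lay below 0 (median -0.18) and 0 had an unadjusted p below 0.05, with a mean log2 CPM of 0.80, 1.23 and 1.42 against 0.92, 1.65 and 1.32. Their median was 0.04 without replicate 2 of dexamethasone alone and -0.35 without its replicate 1. Of 28 genes of the G1/S transition and DNA replication, 4 were lower and 0 higher at an unadjusted p below 0.05, against 2.19% and 1.66% of all genes. The 4 were the ribonucleotide reductase subunits Rrm1 (-0.15) and Rrm2 (-0.17), E2f2 (-0.26) and Gins2 (-0.29). The median of this list was -0.09, or -0.02 without replicate 2 and -0.12 without replicate 1 of dexamethasone alone. In the blocked fit of 6 libraries Rrm1, Rrm2 and E2f2 passed as lower (1.23% of all genes) and 0 genes of the list as higher (0.981%). The block over 18 libraries called none of them. Undifferentiated myoblast markers, which include the proliferation genes Mki67 and Top2a, had a median of -0.09 with 6 of 7 below 0, which was -0.23 without replicate 1 of dexamethasone alone and 0.01 without replicate 1 of ginsenoside Rc with dexamethasone, and their part in the result was not tested.

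**Figure D5:**
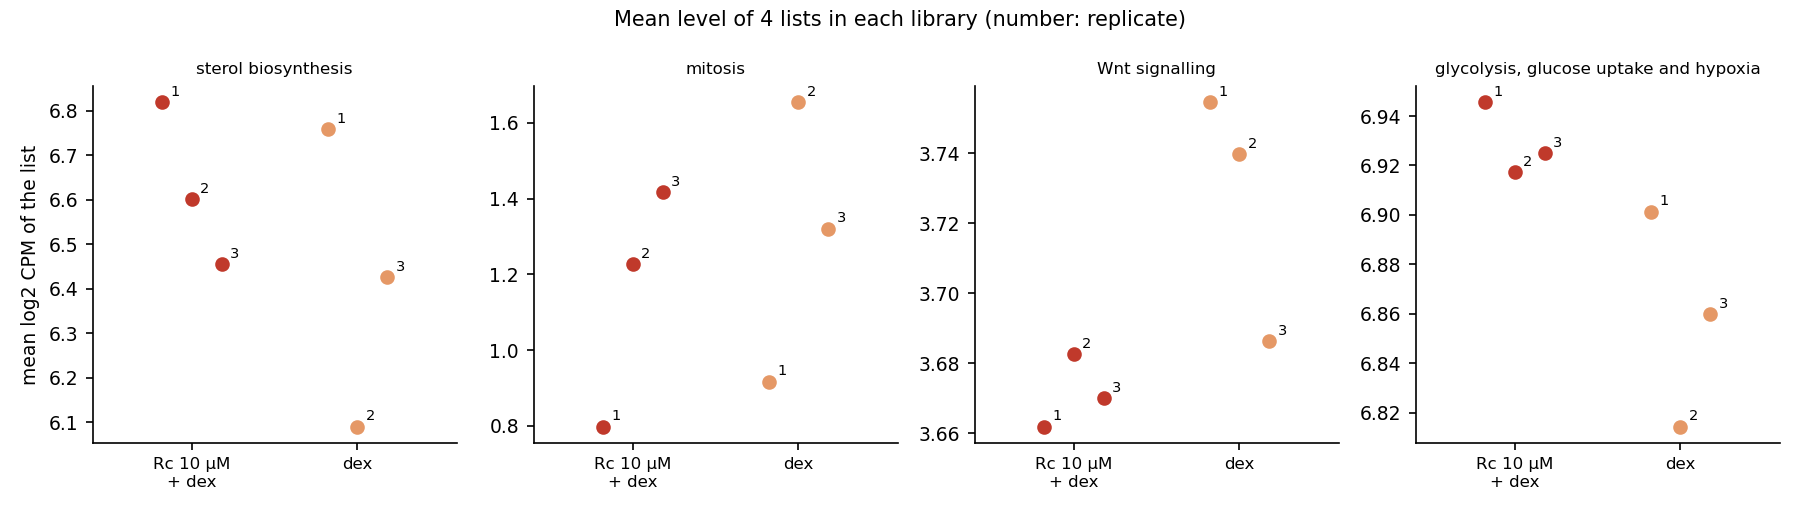
Mean log2 CPM of 4 lists in each of the 6 libraries, numbered by replicate; each panel has its own axis, which does not start at 0. Sterol and mitosis genes overlap between groups and replicate 2 of dexamethasone alone is the extreme library in both, while Wnt genes are lower and glycolysis genes higher in all 3 libraries of ginsenoside Rc and dexamethasone.

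In the edgeR fit of all 18 libraries few genes of the remaining lists stood out. Over all genes tested, 3.85% had an unadjusted p below 0.05. At an unadjusted p below 0.05 stood 1 of 19 calcium handling genes (Atp2a1), 1 of 32 antioxidant genes (Txnip, 0.13), 2 of 37 genes of the integrated stress and unfolded protein response (Atf3, 0.30, and Nupr1, 0.17), 1 of 21 clock genes (Per3, 0.14) and 1 of 25 p53 targets (Cdkn1a). None did among 28 genes of fatty acid oxidation, 13 mitochondrially encoded genes, 30 of mitochondrial biogenesis, 22 heat shock proteins, 24 interferon response genes, 34 of the proteasome, 34 of autophagy and lysosome, and 47 cytosolic ribosomal proteins. The medians of these lists lay between -0.03 and 0.10. In the blocked fit of 6 libraries 0.981% of all genes passed as higher and 1.23% as lower. There p53 targets had 1 higher and 2 lower, and antioxidant genes 2 higher and 1 lower. Calcium handling, stress and unfolded protein response, and heat shock lists had 1 higher and 0 lower each. The other lists of this paragraph had none, and the block over 18 libraries called none of these genes.

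To see whether ginsenoside Rc shifted the dexamethasone response as a whole, responsive genes were taken from libraries that the comparison does not use, 20 µM ginsenoside Rc with dexamethasone against 20 µM without. Genes that 20 µM itself moved under dexamethasone can be among them. Of 631 genes raised there by more than 1 on the log2 scale, 415 (65.8%) lay above 0 with 10 µM ginsenoside Rc and dexamethasone over dexamethasone alone (median 0.06), against 50.2% of all genes tested. Of 1108 genes lowered there, 779 lay below 0 and 329 (29.7%) above it (median -0.10). The mean log2 CPM of the raised genes was 2.65, 2.60 and 2.56 against 2.59, 2.49 and 2.54 with dexamethasone alone. That of the lowered genes was 0.33, 0.43 and 0.53 against 0.44, 0.63 and 0.53. Both overlap between groups. With any 1 of the 6 libraries left out, the medians ranged from 0.04 to 0.09 for raised and from -0.15 to -0.05 for lowered genes. Chosen without replicate 2 of 20 µM alone, an alternative added after seeing the data, 416 of 646 raised genes (64.4%, median 0.06) and 318 of 1075 lowered genes (29.6%, median -0.10) lay above 0.

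Whether the 10 µM difference was another with dexamethasone than without it was tested as an interaction. Of 15436 genes 0 passed in edgeR (0%; smallest adjusted p 0.9999), with 327 at an unadjusted p below 0.05, and DESeq2 called 0. For the 4 genes the interaction estimate was -0.44 ± 0.14 for Fgfbp1, -0.48 ± 0.13 for Lgr6, -0.08 ± 0.12 for Col23a1 and 0.19 ± 0.08 for Tm6sf1. The smallest p in each direction belonged to Dact1, a Wnt modulator (0.53 ± 0.13), and 9430015G10Rik (0.35 ± 0.09), and to Gm42715 (-0.57 ± 0.13) and Sult2b1 (-0.62 ± 0.16). For Dact1 the fitted difference was 0.12 with dexamethasone and -0.41 without.

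Without dexamethasone, 10 µM ginsenoside Rc changed 1 gene (0.00648%). Myh8 rose to 693, 683 and 681 CPM with ginsenoside Rc, against 511, 525 and 526 CPM in controls (0.40 ± 0.05, adjusted p = 0.0107). Leaving out any 1 of those 6 libraries ended this call. The count was also 1 with the replicate block over 18 libraries, and 74 with the block in those 6 libraries alone. Among genes of that level (average log2 CPM 1 or more) and an unadjusted p below 0.05 in the presence of dexamethasone, 315 of 436 (72.2%) had the same sign without it, against 6662 of 11786 (56.5%) of all genes so expressed. The 2 comparisons share no library.

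At 20 µM with dexamethasone, measured against the same 3 dexamethasone libraries, 57 genes passed (0.369%), and dexamethasone alone against control changed 6755 (43.8%). Since these share libraries with the 10 µM comparison, the values are only set side by side. Fgfbp1 measured 5.91 ± 0.14 CPM with dexamethasone alone, 3.62 ± 0.45 CPM with 10 µM and 3.80 ± 0.53 CPM with 20 µM ginsenoside Rc (SD, n = 3 each). Lgr6 measured 8.74 ± 1.21, 5.61 ± 0.34 and 4.18 ± 0.04 CPM in the same order, and Col23a1 6.34 ± 0.59, 4.35 ± 0.27 and 3.41 ± 0.31 CPM. Tm6sf1 measured 89.2 ± 2.6, 111.1 ± 5.3 and 122.8 ± 3.1 CPM, and Gja5 21.9 ± 2.6, 13.4 ± 0.52 and 10.3 ± 0.78 CPM. Between the doses themselves 0 genes passed in edgeR (0%), with 437 at an unadjusted p below 0.05, and DESeq2 called 0. The log2 fold change of 20 µM over 10 µM was 0.07 ± 0.11 for Fgfbp1, -0.42 ± 0.11 for Lgr6, -0.36 ± 0.10 for Col23a1, 0.15 ± 0.05 for Tm6sf1 and -0.38 ± 0.13 for Gja5. The smallest p between doses belonged to Abra, an actin-binding protein of striated muscle (0.24), and B230369F24Rik (0.76), and to the lipase inhibitor Angptl4 (-0.37) and Pi15 (-0.25).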

How the data were processed

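Poly-A RNA of C2C12 myotubes was read from both ends (100 bp each), per the labels' protocols. RSEM 1.3.3, STAR 2.7.3a, Trim Galore 0.6.5 and the build GRCm38 are listed in the submitters' processing notes, with no roles given. The authors deposited a table of expected counts, RSEM's estimated fragments per gene, for 48795 genes. No source used here states the annotation release or the strand setting, so antisense, overlapping and near-identical genes are less certain. Expected counts were rounded, filtered with filterByExpr (15436 genes kept), scaled by TMM and fitted with 1 mean per group over 18 libraries with edgeR 4.0.16 (R 4.3.3, quasi-likelihood, robust) and Benjamini-Hochberg adjustment at 0.05. Standard errors were taken as the absolute log2 fold change over the root of the F statistic. CPM are TMM scaled; log2 CPM use a prior count of 2. Symbols and coordinates came from GENCODE M21 (48349 genes named). The test was run on simulated data first.

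Libraries with the same replicate number correlated in their deviations from the group means by 0.45, 0.14 and 0.11 in the 2 groups compared, which by a limit of 0.1 counts as pairing; the labels give no reason for it, and replicate 3 with ginsenoside Rc correlated more with replicate 2 of dexamethasone alone (0.18). Library pairs within these groups differed beyond sampling noise (chi-square per degree of freedom 4.93 to 12.6). Named genes were all that passed, the next 8 in each direction by p among genes averaging 1 log2 CPM or more, the member with the smallest p below 0.01 of each list, 12 fixed genes, and the 2 smallest p per direction of comparisons without calls; list members at an unadjusted p below 0.05 were added after their values were seen. One gene that the rule names is not reported here. The comparison, the 39 lists (31 of pathways, 8 of cell type markers) and the rules were chosen with earlier results of these data known. Alternatives were DESeq2 1.42.0, other scaling, no filter, a replicate block, only the groups compared, a 1.2-fold test and leaving out libraries.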

Additional observations from a re-analysis of the deposited data

How the results depend on the processing

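The count of 4 genes changed by 10 µM ginsenoside Rc with dexamethasone was 16 with DESeq2, 15 without replicate 2 of 20 µM ginsenoside Rc alone, 1 with only the groups compared, 1 with the replicate block over 18 libraries, 0 in a test against a 1.2-fold change, and 324 with the replicate block and only the groups compared, which was chosen after seeing the data. Leaving out each of the 6 libraries gave 0 to 1. DESeq2 and the fit without that library shared all 4 genes. Without composition scaling the count stayed at 4, but all 4 were lower (Gja5 in place of Tm6sf1, whose adjusted p was 0.157). The count of 1 gene for 10 µM ginsenoside Rc without dexamethasone was 2 with no filter, 3 without replicate 2 of 20 µM ginsenoside Rc alone, 8 with only the groups compared, 0 in the 1.2-fold test, 5 with DESeq2, 74 with the replicate block and only the groups compared, and 0 without any 1 of its libraries. The interaction and the comparison of the doses gave 0 under every alternative run. When each library was left out in turn, 3 small fold changes crossed 0: Foxo1 ranged from -0.051 to 0.023, Abra from -0.00090 to 0.073 and Pi15 from -0.071 to 0.030. The cause of these moves was not tested.

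With 3 libraries per group, the SE was 0.11 for Fbxo32 and 0.13 for Trim63 on the log2 scale, and their fold changes of 0.13 and 0.16 were not told apart from 0 in 14 of 15 alternatives each.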
